A study of Mus musculus with 10 samples.

Results

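Chromosome 11 of the mouse was cut into 100 kb windows counted from position 1 of the mm10 assembly, which gave 1220 windows of the 26321 on the 19 autosomes and X. No gene or listed site lies in the 31 windows at the centromeric end, so 1189 windows were described and set against 22851 windows of the other 18 autosomes, trimmed in the same way. The chromosome was chosen by its density of 5-carboxylcytosine (5caC) sites, the highest of all autosomes in these data, so the number of sites, their summed coverage and everything derived from those totals are descriptions here and carry no test. Chosen in this way, chromosome 11 ranked 1 in sites per Mb in all 4 groups of cells.

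The sites come from mouse embryonic stem cells grown without feeder cells on gelatin in serum medium with leukaemia inhibitory factor (LIF), a cytokine that keeps such cells undifferentiated. The 4 groups were serum-2i Tdg, serum Tdg, serum-2i wt and serum wt, each named for its medium and its genotype. Serum-2i medium adds 2 compounds to the serum medium: CHIR99021 at 3 µM, which inhibits GSK3, and PD0325901 at 1 µM, which inhibits MEK. The labels give the name of the gene Tdg but not how it was altered, nor whether a line is 1 clone. Each group stands as 1 value per site, the mean of 2 technical replicates, so no difference below has a replicate check and no p-value is given. A separate control was not analysed here.

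5caC is the last oxidation product of 5-methylcytosine in the reactions of the TET enzymes. The glycosylase TDG, the product of Tdg, cuts 5-formylcytosine and 5caC out of DNA, and base excision repair then puts an unmodified cytosine in their place, so the mark is scarce in cells with active TDG and accumulates without it. In the assay 5-hydroxymethylated and unmodified CG dinucleotides were first blocked, an engineered M.SssI methyltransferase then replaced the carboxyl group of 5caC with an azide-bearing group, and the tagged fragments were captured through biotin and sequenced. The value of a site, called caCLEAR coverage, is its number of such reads. The lowest value listed was 6 in both Tdg groups, 4 in serum-2i wt cells and 3 in serum wt cells, so listing began at a lower coverage in wt than in Tdg cells.

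The promoters of 5 chromosome 11 genes show where listed sites sat. They are the pair with most listed CGs in serum-2i Tdg cells, the pair with most in serum Tdg cells, and the promoter with most CGs of which none was listed in any group. Ties went to the promoter nearest the centromere: Hes7 shares its 7 listed CGs with Nags and Tbkbp1. Each sequence runs from 250 bases before to 50 bases after the RefSeq gene start (GRCm38.p6), 5′ to 3′ on the strand of the gene, and capitals mark the listed CGs: those of serum-2i Tdg cells for Tm4sf5 and Hormad2, and those of serum Tdg cells for Dnaic2 and Hes7.
Tm4sf5: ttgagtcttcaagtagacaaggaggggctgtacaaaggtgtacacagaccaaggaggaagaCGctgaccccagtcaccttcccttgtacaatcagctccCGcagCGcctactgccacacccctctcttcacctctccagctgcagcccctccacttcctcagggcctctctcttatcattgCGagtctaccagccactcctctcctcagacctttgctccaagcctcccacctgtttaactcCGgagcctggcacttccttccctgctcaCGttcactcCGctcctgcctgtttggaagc
Hormad2: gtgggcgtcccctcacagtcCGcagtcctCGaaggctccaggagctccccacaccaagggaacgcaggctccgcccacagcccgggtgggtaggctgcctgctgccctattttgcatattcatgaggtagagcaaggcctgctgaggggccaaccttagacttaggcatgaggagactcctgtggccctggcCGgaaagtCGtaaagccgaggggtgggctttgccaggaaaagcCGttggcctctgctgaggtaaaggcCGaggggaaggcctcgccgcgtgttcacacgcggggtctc
Dnaic2: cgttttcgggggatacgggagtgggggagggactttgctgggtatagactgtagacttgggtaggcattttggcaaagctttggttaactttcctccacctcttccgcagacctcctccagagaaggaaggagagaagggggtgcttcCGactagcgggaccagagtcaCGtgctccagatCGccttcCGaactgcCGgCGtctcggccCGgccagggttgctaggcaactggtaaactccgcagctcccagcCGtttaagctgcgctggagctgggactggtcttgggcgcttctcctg
Hes7: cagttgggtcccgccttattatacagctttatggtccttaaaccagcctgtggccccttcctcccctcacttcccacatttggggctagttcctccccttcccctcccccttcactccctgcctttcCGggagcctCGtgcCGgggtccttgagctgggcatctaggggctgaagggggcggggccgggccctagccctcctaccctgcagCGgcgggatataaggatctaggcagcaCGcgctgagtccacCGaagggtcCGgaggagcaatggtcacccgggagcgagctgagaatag
Larp1: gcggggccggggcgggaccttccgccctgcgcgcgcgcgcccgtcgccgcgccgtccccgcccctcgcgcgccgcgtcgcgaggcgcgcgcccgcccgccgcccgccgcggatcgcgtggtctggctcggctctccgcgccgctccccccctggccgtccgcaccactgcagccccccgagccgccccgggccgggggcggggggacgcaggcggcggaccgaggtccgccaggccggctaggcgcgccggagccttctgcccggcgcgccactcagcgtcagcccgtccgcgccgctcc
Tm4sf5 codes for a membrane protein of the transmembrane 4 superfamily (chr11:70505024-70505323, plus strand). Serum-2i Tdg cells listed all 7 of its promoter CGs, and serum Tdg cells 6. Hormad2 codes for a protein of meiotic chromosome axes (chr11:4441033-4441332, minus strand), and 6 of its 16 CGs were listed in serum-2i Tdg cells, against 6 in serum Tdg cells. Dnaic2 codes for an intermediate chain of axonemal dynein (chr11:114727169-114727468, plus strand). None of its 17 CGs was listed in serum-2i Tdg cells, against 8 in serum Tdg cells. Hes7, a repressor of the somite segmentation clock (chr11:69120203-69120502, plus strand), had 3 of 14 CGs listed in serum-2i Tdg cells and 7 in serum Tdg cells. Larp1, an RNA-binding regulator of ribosomal protein mRNA translation (chr11:58008814-58009113, plus strand), has 61 CGs in its promoter, and none was listed in any of the 4 groups. None of these 5 promoters held a listed site in wt cells.

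Chromosome 11 held 430.6 listed sites per Mb in serum-2i Tdg cells, against 276.7 per Mb on the other autosomes, a ratio of 1.56. Serum Tdg cells had 286.8 per Mb on chromosome 11, against 147.7 per Mb elsewhere, a ratio of 1.94. In serum-2i wt cells the density was 80.2 per Mb on chromosome 11 and 44.1 per Mb on the other autosomes, a ratio of 1.82. In serum wt cells it was 8.55 per Mb on chromosome 11 and 3.34 per Mb on the other autosomes, a ratio of 2.56. The ratio was thus lowest in the group with most sites and highest in the group with fewest.

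These densities rest on 51193 sites of chromosome 11 in serum-2i Tdg cells, 34095 in serum Tdg cells, 9530 in serum-2i wt cells and 1017 in serum wt cells. They made up 7.43%, 9.10%, 8.60% and 11.7% of all sites listed in serum-2i Tdg, serum Tdg, serum-2i wt and serum wt cells, on 4.95% of the autosomal length. The exact 95% interval of the ratio, which covers counting error only, ran from 1.54 to 1.57 in serum-2i Tdg cells and was widest in serum wt cells, from 2.40 to 2.74. The autosome next in density was chromosome 19 in serum-2i Tdg cells (355.7 per Mb), in serum Tdg cells (231.4 per Mb) and in serum wt cells (5.51 per Mb), and chromosome 8 in serum-2i wt cells (61.0 per Mb). The median coverage of a listed site was 13.5 on chromosome 11 and 13.5 elsewhere in serum-2i Tdg cells. It was 15.0 and 14.5 in serum Tdg cells, and 7.5 in both in serum-2i wt cells. Positions below the lowest listed value are absent, so these medians cannot separate more sites from stronger ones. The share of reads from a chromosome also depends on its copy number in the cells, which no file here measures and whose part was not tested.

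**Figure D1:**
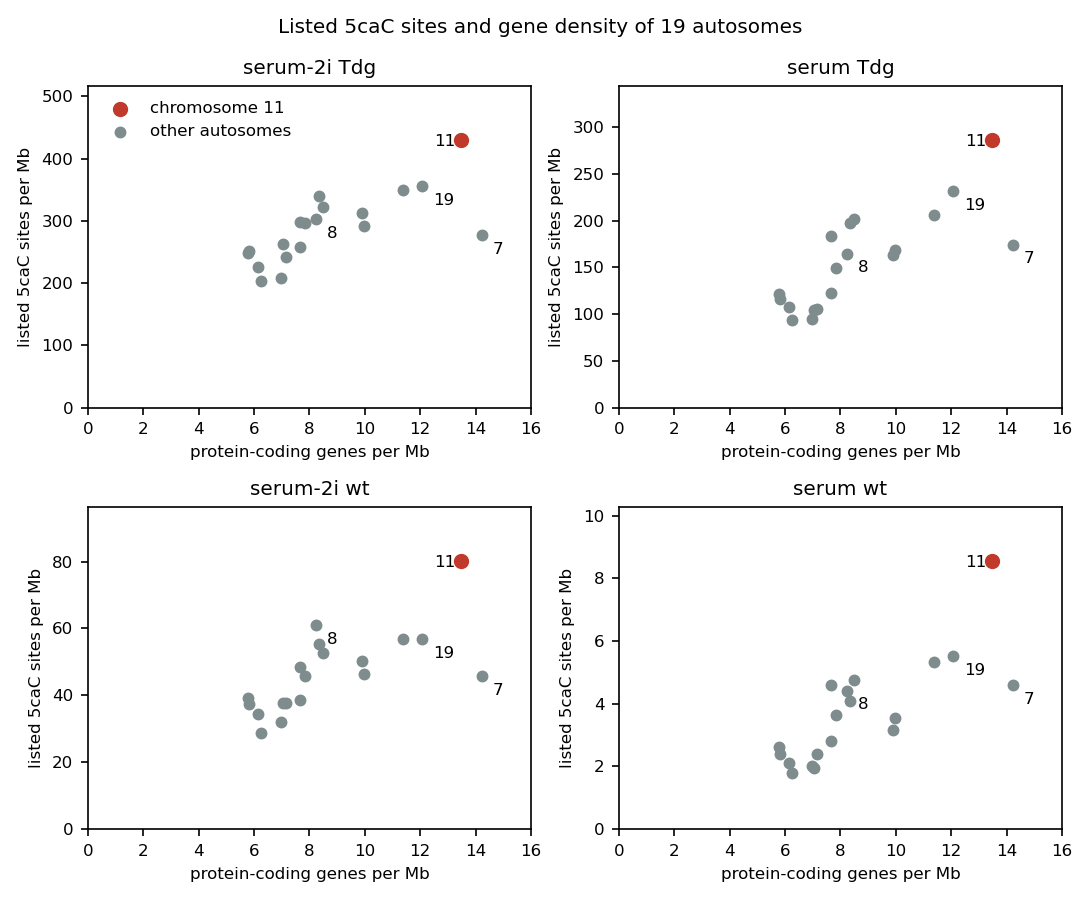
Listed 5caC sites per Mb (vertical axis) against protein-coding genes per Mb (horizontal axis), 1 point for each of the 19 autosomes and 1 panel for each group; chromosomes 11, 19, 8 and 7 are numbered. Chromosome 11 lies above the other autosomes in every panel, while chromosome 7, with 14.2 genes per Mb, is denser in genes than chromosome 11, with 13.5.

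Chromosome 11 is rich in genes. It carries 1602 protein-coding genes in RefSeq, 13.5 per Mb, second to chromosome 7 with 14.2 per Mb. Windows with more genes held more sites in every group. Across the 1189 windows, Spearman's rho between sites and protein-coding genes was 0.52, 0.58, 0.52 and 0.45 in serum-2i Tdg, serum Tdg, serum-2i wt and serum wt cells. Over the windows of the other autosomes it was 0.42, 0.48, 0.43 and 0.33 in serum-2i Tdg, serum Tdg, serum-2i wt and serum wt cells. Windows of a library share its depth and its base composition, so these are descriptions.

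At the same gene number, chromosome 11 windows still held more sites. Among windows with no gene midpoint, the mean was 22.8 sites on 513 chromosome 11 windows and 16.4 on 12854 windows elsewhere in serum-2i Tdg cells. In serum Tdg cells these windows, some of which lie inside long genes, held 9.07 sites on chromosome 11 and 5.57 elsewhere. In windows with 4 genes the means were 75.6 on chromosome 11 and 51.2 elsewhere in serum-2i Tdg cells, and 67.1 and 41.6 in serum Tdg cells. With 5 genes or more the ratio was smallest: 66.5 on chromosome 11 and 57.7 elsewhere in serum-2i Tdg cells, and 69.0 and 61.6 in serum Tdg cells. Over the 6 gene classes the ratio ran from 1.15 to 1.48 in serum-2i Tdg, from 1.12 to 1.64 in serum Tdg, from 1.22 to 1.62 in serum-2i wt and from 1.15 to 2.44 in serum wt cells. Set against the sites its windows would hold at the mean of other autosomes' windows of the same gene class, chromosome 11 had 1.34 times as many in serum-2i Tdg, 1.46 times in serum Tdg, 1.51 times in serum-2i wt and 1.77 times in serum wt cells. It ranked 1 of the 19 autosomes on this gene-matched ratio in each group. The next highest was chromosome 5 in serum-2i Tdg cells (1.18), chromosome 4 in serum Tdg cells (1.34), chromosome 8 in serum-2i wt cells (1.40) and chromosome 15 in serum wt cells (1.39).

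**Figure D2:**
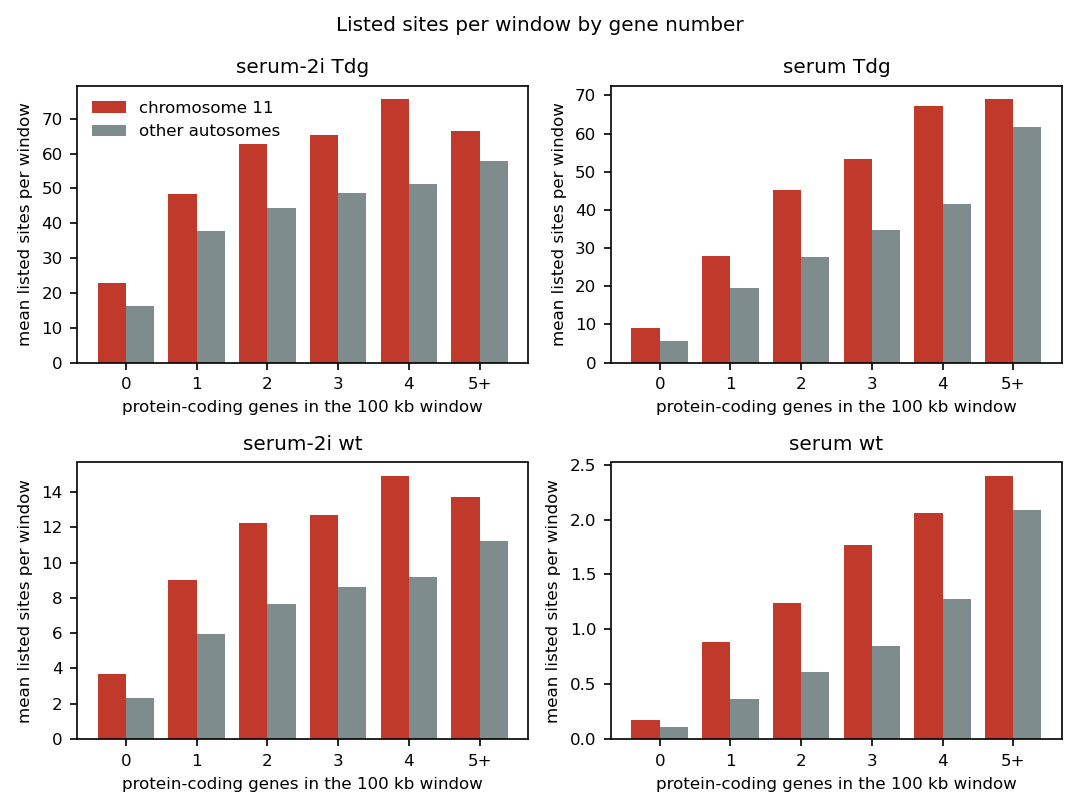
Mean number of listed sites per 100 kb window (vertical axis) for windows with 0, 1, 2, 3, 4 and 5 or more protein-coding genes (horizontal axis), on chromosome 11 and on the other autosomes, with 1 panel for each group. A gene counts in the window of its midpoint. The chromosome 11 bar is the taller in all 24 pairs, and the ratio of the bars is smallest in windows with 5 or more genes in each panel.

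Sites were spread over most of the chromosome in every group but serum wt. The median chromosome 11 window held 29 sites in serum-2i Tdg cells, against 13 in the median window elsewhere, and 10 sites in serum Tdg cells, against 2 elsewhere. No site was listed in 4.46% of chromosome 11 windows in serum-2i Tdg cells, against 10.9% of windows elsewhere. The share without a site in serum Tdg cells was 21.4% on chromosome 11 and 35.7% elsewhere, and in serum-2i wt cells 23.0% on chromosome 11 and 37.2% elsewhere. In serum wt cells it was 69.0% on chromosome 11 and 82.2% elsewhere. Windows with a site in every group numbered 356 on chromosome 11 (29.9%), against 3704 elsewhere (16.2%). No site in any group was listed in 47 chromosome 11 windows (3.95%, against 9.84% elsewhere). Of these, 40 held no midpoint of a protein-coding gene, as did 43.1% of all chromosome 11 windows, and some lay inside long genes. The longest empty run was 5 windows at chr11:38300001-38800000, where no protein-coding gene lies. The densest 10% of windows held 32.1%, 46.0%, 35.3% and 64.9% of chromosome 11 sites in serum-2i Tdg, serum Tdg, serum-2i wt and serum wt cells. Elsewhere the densest 10% held 39.4%, 57.5%, 44.2% and 76.6% in the same groups.

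The excess was not even along the chromosome. In 10 Mb segments counted from the centromeric end, the region between 10 and 50 Mb held fewer sites than gene-matched windows of other autosomes in all 4 groups. Between 10 and 20 Mb, where only 23 protein-coding genes lie, the means were 12.8, 4.19, 1.68 and 0.090 sites per window in serum-2i Tdg, serum Tdg, serum-2i wt and serum wt cells, or 0.62, 0.49, 0.55 and 0.53 times the gene-matched mean in serum-2i Tdg, serum Tdg, serum-2i wt and serum wt cells. From 50 Mb on, every 10 Mb segment lay above the gene-matched mean in each group.

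The densest whole 10 Mb segment was that from 110 to 120 Mb. Windows there held 80.2, 58.0, 15.8 and 1.89 sites in serum-2i Tdg, serum Tdg, serum-2i wt and serum wt cells, or 2.45, 2.76, 2.89 and 3.48 times the gene-matched mean in serum-2i Tdg, serum Tdg, serum-2i wt and serum wt cells. Among 220 whole 10 Mb segments of the autosomes, this one ranked 3, 3, 2 and 1 by mean sites in serum-2i Tdg, serum Tdg, serum-2i wt and serum wt cells. It holds 147 protein-coding genes, fewer than the 208 between 100 and 110 Mb, where the gene-matched ratio was 1.71 in serum-2i Tdg and 1.75 in serum Tdg cells.

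The last 10 Mb of the chromosome also stood above the last 10 Mb of each other autosome in mean sites per window. They averaged 89.2 sites per window in serum-2i Tdg cells, against 15.9 to 74.4 (median 36.5) at the same end of the other 18 autosomes. For serum Tdg cells the means were 67.7 on chromosome 11 and 5.85 to 61.7 (median 23.3) elsewhere, and in serum-2i wt cells 18.5 on chromosome 11 and 2.22 to 15.8 (median 6.42) elsewhere. In serum wt cells they were 2.50 on chromosome 11 and 0.11 to 1.82 (median 0.47) elsewhere. This end of chromosome 11 held 206 protein-coding genes, the most of the 19 autosomes. Matched on genes, its ratio was 2.41, 2.63, 2.91 and 3.62 in serum-2i Tdg, serum Tdg, serum-2i wt and serum wt cells. The end of chromosome 8 stood at 2.04, 2.32, 2.90 and 4.03 in the same groups, above chromosome 11 in serum wt cells.

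Split at 50 Mb, a boundary chosen after the profile was seen, the 720 distal windows carried 79.1%, 85.3%, 81.1% and 84.3% of the chromosome's sites in serum-2i Tdg, serum Tdg, serum-2i wt and serum wt cells. Their mean was 2.03, 2.73, 2.44 and 3.57 times that of the other autosomes in serum-2i Tdg, serum Tdg, serum-2i wt and serum wt cells. The 469 proximal windows had 0.82, 0.72, 0.87 and 1.02 times the mean of the other autosomes in serum-2i Tdg, serum Tdg, serum-2i wt and serum wt cells. Gene density differed along with the sites, with 1.83 protein-coding genes per distal and 0.61 per proximal window. Matched on genes, the distal ratio was 1.53, 1.67, 1.73 and 1.92 in serum-2i Tdg, serum Tdg, serum-2i wt and serum wt cells, and the proximal ratio 0.90, 0.85, 0.97 and 1.24 in serum-2i Tdg, serum Tdg, serum-2i wt and serum wt cells. The proximal value of serum wt cells rested on the window of Sfi1 and was 0.79 without it.

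The 10 Mb nearest the centromere were the exception among proximal windows. Their gene-matched ratio was 1.47, 1.50, 1.95 and 3.41 in serum-2i Tdg, serum Tdg, serum-2i wt and serum wt cells. Without the Sfi1 window it was 1.43, 1.45, 1.73 and 1.56 in serum-2i Tdg, serum Tdg, serum-2i wt and serum wt cells.

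**Figure D3:**
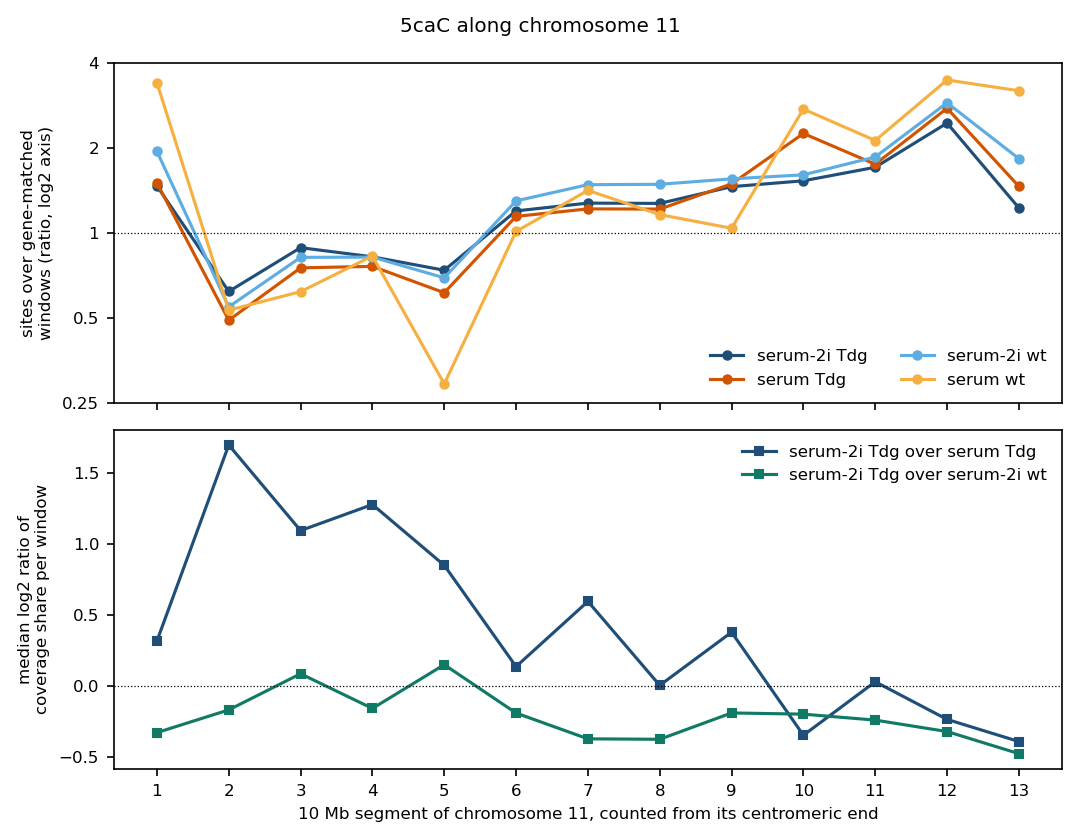
The upper plot gives, for each 10 Mb segment of chromosome 11 (horizontal axis, from the centromeric end; the last holds 20 windows), the number of listed sites over the number at the gene-matched mean of other autosomes (ratio, log axis) in the 4 groups; the lower plot gives the median log2 ratio of coverage share over the windows tested, for serum-2i Tdg over serum Tdg and serum-2i Tdg over serum-2i wt. The segment from 110 to 120 Mb is highest in the upper plot in the 4 groups, at 2.45 in serum-2i Tdg cells, and the media ratio is 1.69 in the second segment and -0.39 in the last.

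In serum-2i Tdg cells the leading window was that of Dnah17. The window chr11:118000001-118100000, over Dnah17, a heavy chain of axonemal dynein, and Pgs1, an enzyme of cardiolipin synthesis, held 257, 124, 60 and 4 sites in serum-2i Tdg, serum Tdg, serum-2i wt and serum wt cells. Of all windows of the autosomes and X it ranked 1 in serum-2i Tdg cells and 2 in serum-2i wt cells, and 360 in serum Tdg cells. A window inside Msi2, which codes for an RNA-binding Musashi protein, held 214, 121, 22 and 0 sites in serum-2i Tdg, serum Tdg, serum-2i wt and serum wt cells (chr11:88600001-88700000). The other windows among the first 5 in serum-2i Tdg cells lay over Cdc42ep4, Sdk2 and Cpsf4l (195 sites), over Plxdc1 and Arl5c (188 sites) and over Pecam1 and Tex2 (185 sites).

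The windows with most sites in serum Tdg cells included those over homeobox and T-box genes. The window chr11:96300001-96400000 over Hoxb3, Hoxb1, Hoxb5 and Hoxb4, transcription factors that pattern the body axis, held 153, 486, 12 and 10 sites in serum-2i Tdg, serum Tdg, serum-2i wt and serum wt cells. It ranked 210 among all windows in serum-2i Tdg cells but 2 in serum Tdg cells. The window before it, with Hoxb7, Hoxb6, Hoxb8 and Hoxb9, held 106, 312, 12 and 5 sites in serum-2i Tdg, serum Tdg, serum-2i wt and serum wt cells. Others were the window of Tbx4, Tbx2 and Bcas3 (chr11:85800001-85900000), with 77 sites in serum-2i Tdg and 281 in serum Tdg cells, and that of Srcin1, Arhgap23 and 4933428G20Rik, with 137 in serum-2i Tdg and 239 in serum Tdg cells.

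In wt cells the leading window was that of Sfi1, a centrosomal protein that binds centrin, at the centromeric end (chr11:3100001-3200000). It held 137, 100, 92 and 59 sites in serum-2i Tdg, serum Tdg, serum-2i wt and serum wt cells, and it ranked 1 among all windows in both wt groups. Of the 1017 chromosome 11 sites of serum wt cells, 59 lay in it. The windows next in serum-2i wt cells were those of Dnah17 (60 sites), Mgat5b (43), Plxdc1 (42) and Tmem94, Grb2 and Caskin2 (41). In serum wt cells they were the windows of Srcin1 and Arhgap23 (19) and of Aspscr1, Pcyt2, Sirt7 and Mafg (17).

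Single genes of the chromosome differed widely in site number. Of its 1602 protein-coding genes, 83.3%, 75.3%, 65% and 21.5% held a site in serum-2i Tdg, serum Tdg, serum-2i wt and serum wt cells, against 76.7%, 67.9%, 57.8% and 15.8% of those on other autosomes in serum-2i Tdg, serum Tdg, serum-2i wt and serum wt cells. Msi2, with a span of 379 kb, held the most in serum-2i Tdg cells: 643 sites, against 236, 107 and 5 in serum Tdg, serum-2i wt and serum wt cells. Slc39a11, a zinc transporter gene, had 580 sites in serum-2i Tdg cells, against 145 in serum Tdg cells. Pitpnc1, a phosphatidylinositol transfer protein gene, held 433 in serum-2i Tdg and 137 in serum Tdg cells. Hoxb3, with 78 sites in serum-2i Tdg cells, led in serum Tdg cells with 284.

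Most of the excess lay away from the ends of genes. The 1 kb on each side of the start and end of protein-coding genes is 4.77% of chromosome 11 and 3.01% of the other autosomes. In it lay 6.74% of chromosome 11 sites (95% exact interval 6.52 to 6.96%) and 5.30% of other autosomes' sites in serum-2i Tdg cells. In serum Tdg cells the share near ends was 13.6% on chromosome 11 (13.2 to 14.0%) and 12.3% elsewhere, and in serum-2i wt cells 6.32% on chromosome 11 (5.84 to 6.82%) and 5.11% elsewhere. In serum wt cells it was 12.2% on chromosome 11 (10.2 to 14.4%) and 13.9% elsewhere. Counted per Mb of such end sequence, chromosome 11 had 1.25 times the sites of other autosomes in serum-2i Tdg, 1.35 times in serum Tdg, 1.42 times in serum-2i wt and 1.42 times in serum wt cells. Away from gene ends the ratio was 1.56, 1.95, 1.83 and 2.66 in serum-2i Tdg, serum Tdg, serum-2i wt and serum wt cells.

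In promoters, where the sequence allowed sites to be counted per CG, the listed share on chromosome 11 was below that of the other autosomes in serum-2i Tdg cells and within counting error of it in the other groups. Of 32618 CGs in its 2289 promoters, 1.55% were listed in serum-2i Tdg cells (exact 95% interval 1.42 to 1.69%), against 1.84% of 362398 CGs elsewhere (1.79 to 1.88%). In serum Tdg cells 2.81% were listed on chromosome 11 (2.63 to 2.99%) and 2.83% elsewhere (2.77 to 2.88%). In serum-2i wt cells the share was 0.178% on chromosome 11 and 0.183% elsewhere, and in serum wt cells 0.0552% on chromosome 11 (0.0327 to 0.0872%) and 0.0469% elsewhere (0.0401 to 0.0545%). By this share chromosome 11 ranked 16 of the 18 autosomes with promoter sequence in serum-2i Tdg cells, and 10, 9 and 7 in serum Tdg, serum-2i wt and serum wt cells. Its promoters held more CGs, 14.3 on average against 12.5 elsewhere. Windows of 100 kb could not be counted per CG because no genome sequence was used here.

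The share of listed CGs differed between promoters with few and with many CGs, and was highest in those with 5 to 9. In that class, in serum-2i Tdg cells, 9.08% of CGs were listed on chromosome 11 (8.04 to 10.2%) and 8.88% elsewhere (8.59 to 9.19%). In serum Tdg cells it held 9.81% on chromosome 11 (8.72 to 11%) and 8.57% elsewhere (8.28 to 8.87%). In promoters with fewer than 5 CGs, 7.84% of CGs were listed on chromosome 11 (6.56 to 9.27%) and 6.20% elsewhere (5.89 to 6.52%) in serum-2i Tdg cells. In serum Tdg cells the shares for that class were 5.37% on chromosome 11 (4.31 to 6.60%) and 3.88% elsewhere (3.63 to 4.14%). In promoters with 20 CGs or more, such as that of Larp1, 0.0853% were listed on chromosome 11 and 0.128% elsewhere in serum-2i Tdg cells, and 0.997% on chromosome 11 and 0.914% elsewhere in serum Tdg cells. With 10 to 19 CGs the shares in serum-2i Tdg cells were 1.88% on chromosome 11 (1.55 to 2.25%) and 2.60% elsewhere (2.49 to 2.73%). In serum Tdg cells the shares for that class were 5.62% on chromosome 11 (5.05 to 6.23%) and 6.0% elsewhere (5.83 to 6.18%). The promoters printed above were chosen for their listed CGs, and Hormad2, Dnaic2 and Hes7 lie far above the share of this class. Such CG-rich promoters of 20 CGs or more made up 32.8% of chromosome 11 promoters and 26.6% of those elsewhere.

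**Figure D4:**
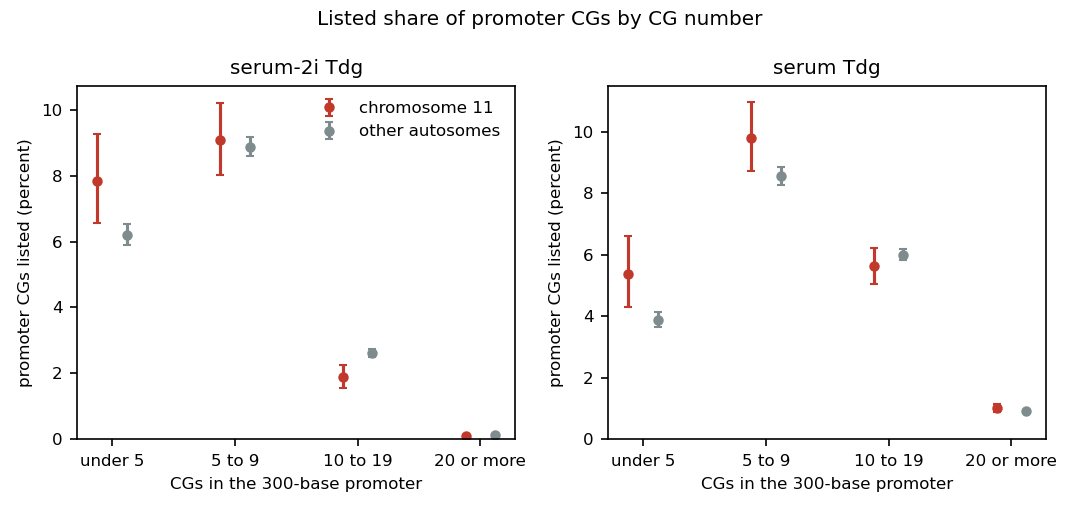
Percent of promoter CGs that were listed (vertical axis, from 0) by the number of CGs in the 300-base promoter (horizontal axis), on chromosome 11 and on the other autosomes, in serum-2i Tdg and serum Tdg cells; bars are exact 95% intervals of counting error. The points of chromosome 11 lie above those elsewhere in promoters with fewer than 5 CGs, and both fall below 1% at 20 CGs or more.

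The media were compared in Tdg cells through the share of a group's summed coverage that fell in a window, as the log2 ratio of serum-2i Tdg over serum Tdg. A window counted as higher or lower at a difference of at least 2-fold with a 95% interval that excludes 0, and was tested where the mean summed coverage over both groups was at least 20 and both groups listed a site. Of 922 chromosome 11 windows tested, 325 were higher in serum-2i Tdg cells, where 44% of the 15562 windows of all chromosomes were higher. A further 120 were lower in serum-2i Tdg cells, where 9.79% of all windows were lower. On chromosome 11 the higher share was thus 35.2% and the lower share 13.0%, and 477 windows lay between. Of 1037 chromosome 11 windows that passed the coverage minimum, 115 had sites in serum-2i Tdg cells alone and none in serum Tdg cells alone. On the other autosomes 17173 windows passed it, of which 2904 had sites in serum-2i Tdg cells alone and 13 in serum Tdg cells alone.

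The median log2 ratio of the windows was 0.33 on chromosome 11, the lowest of the 19 autosomes, and 0.79 on the other autosomes together. Over all windows of all chromosomes it was 0.76. Relative to that median, 196 chromosome 11 windows were higher in serum-2i Tdg cells and 308 lower. When sites were counted in place of coverage, 147 were higher and 100 lower, with a median of 0.14, against 0.49 over all windows. The share of all windows called under either setting was not computed. By summed coverage the chromosome's share was also lower in serum-2i than in serum cells, with a log2 ratio of -0.34 in Tdg cells and -0.49 in wt cells. The wt value rests in part on the Sfi1 window, which held 642.5 of the 5392 units of chromosome 11 coverage in serum wt cells. The share of chromosome 11 was chosen as high in each group, and how it differs between media was known when the chromosome was picked.

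The media ratio followed gene number. On chromosome 11 the median was 1.35 in 293 tested windows without a gene midpoint and 0.49 with 1 gene. It was -0.47 with 3 genes and -0.70 in 73 windows with 5 genes or more. On the other autosomes the median was 1.47 without a midpoint, 0.66 with 1 gene, -0.03 with 3 genes and -0.80 with 5 or more. At the same gene number, chromosome 11 was below the others in windows with 0 to 4 genes and above them with 5 or more. In the proximal 50 Mb, 149 of 294 tested windows were higher in serum-2i Tdg cells and 16 lower (median 1.03), and in the distal windows 176 of 628 were higher and 104 lower (median 0.03).

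Among windows with at least 5 sites in both groups, those strongly lower in serum-2i Tdg cells included a window that Grb10 reaches into (chr11:12000001-12100000), an imprinted gene for an adaptor of the insulin receptor, with 5 sites in serum-2i Tdg and 15 in serum Tdg cells (-3.25). The Hoxb windows followed, at -3.17 and -3.06, and the window of Stard3, Pgap3, Gm33099 and Ppp1r1b at -2.96. The most strongly higher was a window over Nudcd3 (chr11:6100001-6200000), with 64 sites in serum-2i Tdg and 6 in serum Tdg cells, a log2 ratio of 3.60 (3.32 to 3.89). The windows of Tmem17, which codes for a ciliary membrane protein (3.01), 1700012B07Rik (2.83), 4930505A04Rik (2.80) and Col23a1, a transmembrane collagen gene (2.70), came next.

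Read gene by gene, 260 of 1134 chromosome 11 genes with a ratio were higher in serum-2i Tdg cells, against 28.5% of the 13379 genes of all chromosomes, and 364 were lower, against 25.4% of all. The median gene ratio was -0.26 on chromosome 11 and 0.09 over all chromosomes. The gene lists that follow were drawn up with results of these data known, so their counts describe these cells and support no theme.

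All 10 genes of the Hoxb cluster were lower in serum-2i Tdg cells, with a median log2 ratio of -3.48. Hoxb3 had 78 sites in serum-2i Tdg and 284 in serum Tdg cells (-3.44), Hoxb1 had 9 and 40 in the same groups (-4.03), and Hoxb13, at the far end of the cluster, had 11 and 26 (-2.09). Hoxb4 lies within the span of Hoxb3, so a site can count for more than 1 gene. Hoxb9 had 1 site in serum-2i Tdg and 14 in serum Tdg cells (-6.05). In wt cells the 10 genes had 11 sites together in serum-2i medium, against 12 in serum medium.

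Of 28 other regulators of cell lineage, 25 had a ratio: 16 were lower in serum-2i Tdg cells, 9 lay between and 0 were higher, with a median of -2.01. Lhx1, a LIM homeobox gene of head and kidney development, had 3 sites in serum-2i Tdg and 53 in serum Tdg cells (-5.37). Tbx2, a T-box repressor, had 6 sites in serum-2i Tdg and 58 in serum Tdg cells (-5.20). Hic1, a zinc-finger repressor, had 5 in serum-2i Tdg and 33 in serum Tdg cells (-4.86), and Hand1, a regulator of heart and trophoblast development, had 5 and 46 in the same groups (-4.43). Rara, a retinoic acid receptor gene, had 63 sites in serum-2i Tdg and 138 in serum Tdg cells (-2.01). Ebf1, a B-cell factor with a span of 390 kb, lay between at -0.08, with 200 sites in serum-2i Tdg and 103 in serum Tdg cells. Sox9, a regulator of cartilage and testis, had 0 sites in serum-2i Tdg and 7 in serum Tdg cells and so has no ratio. Nog and Tlx3 did not reach the coverage minimum.

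Among Polycomb genes, Cbx8 and Cbx2, which code for chromodomain subunits of Polycomb repressive complex 1, were lower. Cbx8 had 2 sites in serum-2i Tdg and 33 in serum Tdg cells (-5.77), and Cbx2 had 14 and 28 in the same groups (-2.44). Suz12, a core subunit of Polycomb repressive complex 2, was higher with 12 sites in serum-2i Tdg and 1 in serum Tdg cells (2.40). Ezh1, a methyltransferase of the same complex, lay between at 0.03.

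Among 6 genes of LIF and STAT signalling, Stat3, the transcription factor that LIF activates, was higher with 55 sites in serum-2i Tdg and 16 in serum Tdg cells (1.09). Lif itself was lower with 23 sites in serum-2i Tdg and 36 in serum Tdg cells (-1.78). Osm, Stat5a and Stat5b lay between at -0.44, -0.65 and -0.05. Socs3, a feedback inhibitor of the pathway, was listed in serum Tdg cells alone, with 6 sites.

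Of 10 genes listed for length or RNA binding, 9 had a ratio, of which 5 were higher in serum-2i Tdg cells, 4 lay between and 0 were lower, with a median of 1.35. Ankfn1 had 84 sites in serum-2i Tdg and 7 in serum Tdg cells (3.45), Sgcd, a muscle sarcoglycan gene with a span of 1018 kb, had 25 and 3 in the same groups (3.04), and Prkca, a protein kinase C gene, had 176 and 36 (1.91). Msi2, Dnah17, Sdk2 and Dnah2 lay between at 0.66, 0.78, -0.17 and -0.53.

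The 13 neural genes were divided: 10 had a ratio, of which 4 were higher, 3 lower and 3 between. The higher ones were long: Tenm2, a teneurin adhesion gene, had 219 sites in serum-2i Tdg and 29 in serum Tdg cells (2.61), and Asic2, an ion channel gene, had 192 and 59 in the same groups (1.15). The lower ones were shorter: Grin2c, a glutamate receptor subunit gene, had 9 sites in serum-2i Tdg and 28 in serum Tdg cells (-2.91), and Gfap, an astrocyte filament gene, had 5 and 15 in the same groups (-2.82). Of 18 housekeeping genes 12 had a ratio, of which 3 were higher, 2 lower and 7 between, with a median of 0.10. Polr2a, the largest subunit of RNA polymerase II, had 13 sites in serum-2i Tdg and 1 in serum Tdg cells (3.33), and Actg1, Rpl26 and Srsf2 had 0 sites in serum-2i Tdg cells. Of 10 type I keratin genes 6 had a ratio, of which 1, Krt19, was lower (-3.10). Of 13 cytokine and chemokine genes 6 held no site in any group and 2 had a ratio, both between. Of 6 skeletal myosin heavy chain genes 2 had a ratio: Myh13 was higher (1.10) and Myh3 lower (-1.13). Of the 3 imprinted genes, Commd1 was higher (1.10), Grb10 as a whole lay between (0.16) and Zrsr1 did not reach the minimum.

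The Tdg and wt cells were compared in serum-2i medium in the same way, as serum-2i Tdg over serum-2i wt. Tdg cells had 51193 chromosome 11 sites and wt cells 9530, or 5.37 times as many, while on the other autosomes they had 6.27 times as many. Of 899 chromosome 11 windows tested, 71 were higher in serum-2i Tdg cells, where 13.5% of the 14893 windows of all chromosomes were higher, and 113 were lower, where 10.3% of all windows were lower. The shares on chromosome 11 were 7.90% higher and 12.6% lower. The balance turned in 200 kb windows, with 39 higher and 31 lower (median log2 ratio -0.17, against 0.06 over all windows). When sites were counted in place of coverage, 7 were higher and 32 lower (-0.21, against -0.05). How many of all windows were called under these settings was not computed. Of 1034 chromosome 11 windows that passed the minimum, 135 had sites in serum-2i Tdg cells alone, against 3255 of 17028 on the other autosomes.

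The median log2 ratio was -0.24 on chromosome 11 and -0.00 on the other autosomes. Chromosome 8 had a median of -0.33, and the other 17 autosomes lay between -0.06 and 0.14, so chromosomes 8 and 11 stood apart from the rest. The shift was present in each gene class, from -0.19 in windows with 1 gene to -0.38 in those with 5 or more, where the other autosomes had 0.04 and -0.29. The median was -0.13 over 284 windows of the proximal 50 Mb and -0.28 over 615 distal windows, and between 20 and 30 Mb and between 40 and 50 Mb it was above 0, at 0.08 and 0.15. In serum medium, where wt cells had too few sites for single windows, the chromosome's share of summed coverage was lower in Tdg than in wt cells as well, with a log2 ratio of -0.39 (-0.41 to -0.36). The Sfi1 window held 642.5 of the 5392 units of chromosome 11 coverage in serum wt cells, and the ratio without it was not computed.

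**Figure D5:**
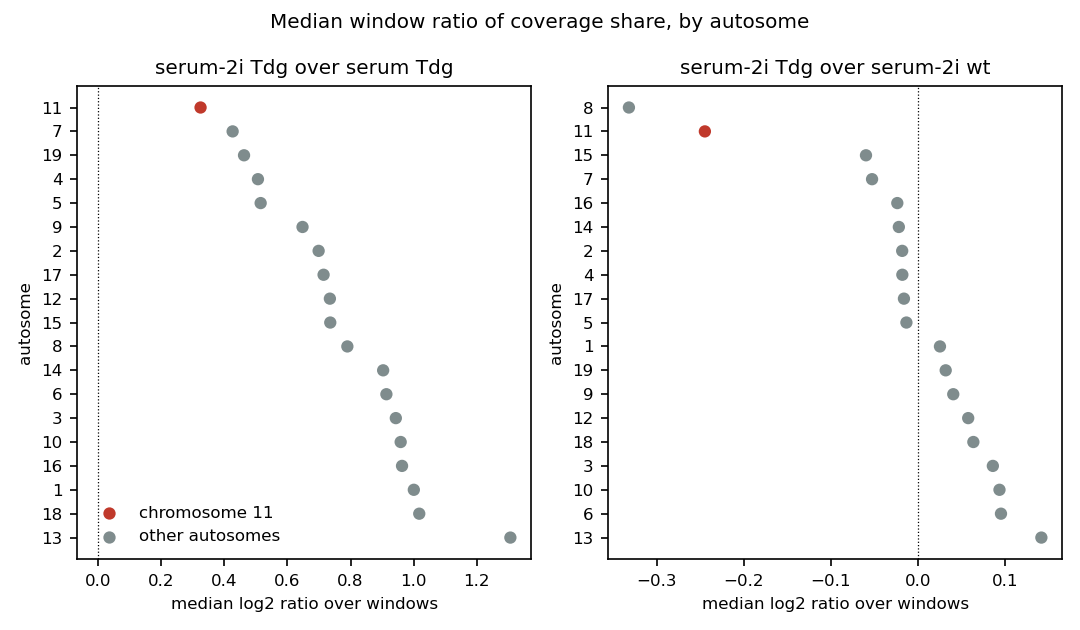
Median log2 ratio of coverage share over the tested windows of each autosome (horizontal axis), for serum-2i Tdg over serum Tdg (left) and serum-2i Tdg over serum-2i wt (right), with autosomes ordered by value on the vertical axis. Chromosome 11 has the lowest median of all autosomes on the left (0.33) and the second lowest, after chromosome 8, on the right (-0.24).

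Among windows with at least 5 sites in both groups, the most strongly higher in serum-2i Tdg than in serum-2i wt cells were those of Fam161a and Cct4 (chr11:23000001-23100000), with 69 sites in Tdg and 5 in wt cells (log2 ratio 1.26), and of Hoxb3 and its neighbours, with 153 in Tdg and 12 in wt cells (1.25). Those of Lgalsl (1.19), of Fam20a, Prkar1a and Wipi1 (1.19) and of Ngfr and Nxph3 (1.15) followed. Among those strongly lower in serum-2i Tdg cells, the window of B3gntl1 and Tbcd near the distal end was at -2.73, that of Rap1gap2, Olfr410, Olfr411 and Olfr412 at -2.29, and that of Acyp2 at -2.04. The Sfi1 window had a summed coverage of 5365 in serum-2i Tdg and 1461 in serum-2i wt cells, a log2 ratio of -1.92 (-1.98 to -1.86).

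Of 964 chromosome 11 genes with a ratio, 78 were higher in serum-2i Tdg than in serum-2i wt cells, against 10.8% of the 11312 genes of all chromosomes, and 267 were lower, against 23.1% of all. The median was -0.46 on chromosome 11 and -0.26 over all chromosomes. Fasn, the gene of fatty acid synthase, was among the lower ones with 17 sites in Tdg and 18 in wt cells (-3.10), and Myh8, an embryonic and perinatal myosin gene, had 5 sites in Tdg and 7 in wt cells (-3.89). P4hb, the gene of protein disulfide isomerase, had 2 sites in both (-4.22). These ratios compare shares of a summed coverage of 12348368 in serum-2i Tdg and 890158 in serum-2i wt cells. A lower share is thus not the same as less coverage in Tdg cells. Genes without a wt site have no ratio, and a ratio with 1 or 2 wt sites rests on those alone. Of the Hoxb genes 4 had a ratio, of which Hoxb3 (1.07), Hoxb6 (1.18) and Hoxb13 (1.65) were higher and Hoxb7 (-1.11) lower. In serum-2i wt cells Hoxb3 had 7 sites, Hoxb7 had 2, and Hoxb6 and Hoxb13 had 1 each. Tenm2 and Sgcd were higher in Tdg cells, at 1.78 and 2.66, with 12 sites and 1 site in serum-2i wt cells.

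Many positions were listed in more than 1 group. Of serum Tdg sites on chromosome 11, 51.3% were also listed in serum-2i Tdg cells (50.8 to 51.8%), against 53.1% elsewhere. Of serum-2i wt sites 50.3% were also listed in serum-2i Tdg cells (49.3 to 51.3%), against 49.1% elsewhere. Of serum wt sites 59.2% were also listed in serum Tdg cells (56.1 to 62.2%), against 54.0% elsewhere. In all, chromosome 11 had 72485 listed positions, of which 91 were listed in every group and 70.8% in 1 group only, against 74.1% elsewhere.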

How the data were processed

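Per the labels, 10 samples were 2 technical replicates each of 4 groups and a control. The deposited table holds, per CG position and group, the caCLEAR signal, a coverage that the authors averaged over technical replicates: all values are multiples of 0.5. The build was mm10, as the submitters' processing notes say; no source used here gives the aligner or the rule for listing a site. Positions were read as counted from 0, since 15144 of 15144 positions within RefSeq promoters fell on the C of a CG that way.

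Windows of 100 kb were filled with sites, summed coverage and RefSeq genes (GRCm38.p6, 21517 protein-coding), a gene belonging to the window of its midpoint. Sites per chromosome were totalled after leaving out windows before the first gene or site. The log2 ratio of 2 groups compares shares of summed coverage, with exact Clopper-Pearson 95% intervals; reads without molecular identifiers are not independent, so intervals cover counting error only. With no values per replicate, no test over replicates was made; a genome sequence was not used here. Calls were tested on simulated data of independent counts with known changes in well-covered windows, a check of the method and not of these reads. Named windows are the 5 with most sites in each of 3 groups, 3 in serum wt cells, and the 5 highest and lowest called ratios with at least 5 sites in both groups; genes named are those of 11 lists and those with most sites in such windows, at most 4. Some of these are not reported here. Promoters, top genes, the 10 Mb profile and the split at 50 Mb were added after the data were seen. Members and lists were chosen with earlier results of these data known. Python 3.11.15, pandas 2.3.3 and scipy 1.17.1 were used. Alternatives changed the filter, window, coverage minimum, scaling and gene classes.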

Additional observations from a re-analysis of the deposited data

How the results depend on the processing

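No paired analysis was possible because the table holds 1 mean per group and no value per replicate; the count test over replicates and counts per CG of each window were not run either. Chromosome 11 stayed above the other autosomes under every alternative run, before and after gene matching. Values below are in the order serum-2i Tdg, serum Tdg, serum-2i wt and serum wt cells, and the cause of a shift was not tested. The density ratio was 1.58, 2.04, 1.88 and 2.76 by summed coverage. It was 1.86 and 3.10 in the wt groups at a coverage of at least 6. A coverage of at least 10 leaves few wt sites. It gave 1.97, 2.01 and 4.88 in serum Tdg, serum-2i wt and serum wt cells. Without the densest 1% of windows the ratio was 1.58 and 2.00 in the Tdg groups. A further alternative was chosen after seeing the data. Without the windows of Sfi1 and the Hoxb cluster the ratio was 1.89 in serum Tdg and 2.38 in serum wt cells. The gene-matched ratio was 1.36, 1.51, 1.55 and 1.91 by summed coverage; 1.54 and 2.13 in the wt groups at a coverage of at least 6, and 1.64 and 3.54 at 10; 1.36, 1.53, 1.54 and 1.89 without the densest 1% of windows; 1.37, 1.62, 1.57 and 2.12 with classes by the share of a window inside coding spans; 1.36, 1.53, 1.56 and 1.90 by all genes; 1.39, 1.55, 1.57 and 1.89 in 50 kb windows; and 1.31, 1.43 and 1.47 in serum-2i Tdg, serum Tdg and serum-2i wt cells in 200 kb windows. In alternatives chosen after seeing the data it was 1.30, 1.41 and 1.46 in those 3 groups with olfactory and vomeronasal receptor genes left out, 1.27, 1.40 and 1.44 with classes by promoter CGs, and 1.43 in serum Tdg and 1.65 in serum wt cells without the windows of Sfi1 and the Hoxb cluster. The share of sites near gene ends was 13.3%, 23.6%, 12.6% and 23.0% within 2 kb, 3.42%, 7.37%, 3.04% and 6.0% within 500 bases, and 6.45%, 13.1%, 5.31% and 16.7% at a coverage of at least 10. Of windows in the media comparison, 147 were higher in serum-2i Tdg cells when sites were counted; with the median set to 0, 196 were higher and 308 lower, which turns the balance of calls; and in 200 kb windows 180 were higher and 64 lower among 516 tested. Between serum-2i Tdg and serum-2i wt cells, 7 were higher and 32 lower by sites, 38 higher and 188 lower at a coverage of at least 10, and 39 higher and 31 lower in 200 kb windows, which turns the balance. These are counts of chromosome 11 windows, and the share of all windows called under these settings was not computed.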
